A study of Mus musculus with 17 samples.

Results

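Liver RNA of male Rj:NMRI mice fed 2 test oils together was compared with liver RNA of mice fed the control diet. The members are the probe sets whose mean intensity over the 5 liver arrays of a chip reached that chip's median, which kept 6537 of 13069 liver probe sets: 3265 of 6529 on chip A and 3272 of 6540 on chip B. Of the kept probe sets, 2459 have no single gene symbol, and the others stand for 3515 genes, each represented by its brightest probe set. The 6 arrays compared, of 17 in the series, hold control 1, control 2 and 1 RNA of mice fed both oils, each on both chips.

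All mice received a fat-free purified rodent diet to which milk fat, palm olein, sunflower oil, soybean oil and medium chain triacylglycerol oil had been added. The control diet held no test oil. In the diet called both oils here, 1.1% of a fungal oil, a source of arachidonate, and 1.9% of a fish oil, a source of docosahexaenoate, replaced part of the medium chain oil of the control diet. Over the diets that oil is given as 2.1% to 5.1%, so less medium chain oil goes with more test oil and their parts cannot be told apart. Fungal oil alone (1.1%) and fish oil alone (1.9%), with 1 liver RNA each, are given beside it. The animals weighed 10 to 11 g at delivery and 33 to 51 g on day 42, were kept 10 per cage, and were killed in the morning of day 57 or 58 after 0 to 6 h without food. Of 10 mice per diet 5 were chosen for liver analysis; whether their RNA was pooled, and whether the control RNAs came from separate animals, is not given in the sources used here. Day of death, hours without food and cage cannot be told apart from diet, and p-values measure only the spread between the control RNAs, which may be technical.

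The liver makes fatty acids from carbohydrate by way of citrate, acetyl-CoA and malonyl-CoA, then desaturates, elongates and esterifies them, and this set of genes is switched on by insulin through the factors SREBP-1c and ChREBP. Polyunsaturated fatty acids are known to lower the activity of SREBP-1c and to bind PPAR-alpha, a nuclear receptor that switches on fatty acid oxidation. Many hepatic genes also follow the time of day and of feeding through clock factors such as Dbp.

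The 3 RNAs were close in RNA quality and in hepatocyte markers. The 3-prime to 5-prime ratio of Gapdh, which climbs as RNA breaks down, was 1.89 and 1.923 on the arrays of both oils and lay between 1.906 and 2.23 on the control arrays. The same ratio of actin was 3.513 and 3.316 with both oils and lay between 3.382 and 3.943 on the control arrays. Hepatocyte markers were abundant in all 3: the 14 measured sum to 81647 and 74637 in the controls and 80335 with both oils, and albumin (Alb) read 12999, 10590 and 12501. Negative values made up 20.0% to 21.2% of liver values on chip A and 31.6% to 34.4% on chip B, so a dim gene often has only a bound. Values below a floor of 15, which is 0.1 times the mean of an array after trimming, were set to that floor, and a difference is the log2 of both oils minus the mean log2 of the controls. Over the 3515 genes the median difference was 0.04, and control 2 minus control 1 had a median of -0.03 and a standard deviation of 0.57.

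Among the brighter genes, Fasn and Acly, which make fatty acids, and the lipid carriers Apoa4 and Fabp5 were 3.64-fold to 17.2-fold lower with both oils, and the clock output gene Dbp, the haem synthesis gene Alas1 and the fatty acid hydroxylase Cyp4a10 were higher. At least 2-fold above both controls lay 149 probe sets (2.28% of those kept) and 56 genes (1.59%), and at least 2-fold below both lay 235 probe sets (3.59%) and 96 genes (2.73%). The controls themselves were 2-fold apart in 687 probe sets. Most of the 384 probe sets past 2-fold were dim, with a median intensity of 69.6 against 145.2 over all kept. Of the 149 higher, 62 had a control at the floor, and of the 235 lower, 90 were at the floor with both oils. The filter also favours gains: 77 of the 149 would not have been kept on the control values alone, against 0 of the 235. Counted by sign, 1900 genes lay above the control mean (54.1%) and 1615 below (45.9%), and 1354 lay above both controls (38.5%) and 1181 below both (33.6%).

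limma, fitted to the 4 diet groups, called 0 of 6537 probe sets (0%) at an adjusted p under 0.05, and 647 had an unadjusted p under 0.05. The threshold alone would give 327 if the RNA of both oils varied like the controls, which 1 RNA cannot show. The cause of the surplus was not tested. The lowest adjusted p was 0.114, for Apoa4. A stricter filter at the 75th percentile of each chip left 3269 probe sets, called the bright subset here, where the controls were 2-fold apart in 72. In it limma called 10 probe sets higher (0.306%) and 27 lower (0.826%), 12 of the 37 without a single gene name. Of the 10, 2 had a control mean under the 75th percentile of the chip (153.6 on chip A, 139.2 on chip B) and entered through the oil RNAs, and of the 27, 3 had an oil mean under it and entered through the controls. Below, "rose" and "fell" are used only of genes called in this subset, with its adjusted p, and standard errors are those of the fit to all kept probe sets. In both fits each probe set has 1 residual degree of freedom. limma adds prior degrees of freedom, which stand for spread pooled over the probe sets of a chip. For chip A this prior was 2.17 with all kept probe sets and 4.27 with the bright subset. For chip B the same prior was 2.05 and 5.3. The part of this difference in the calls was not tested. The single RNA of mice fed both oils is taken to vary like the controls.

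**Figure D1:**
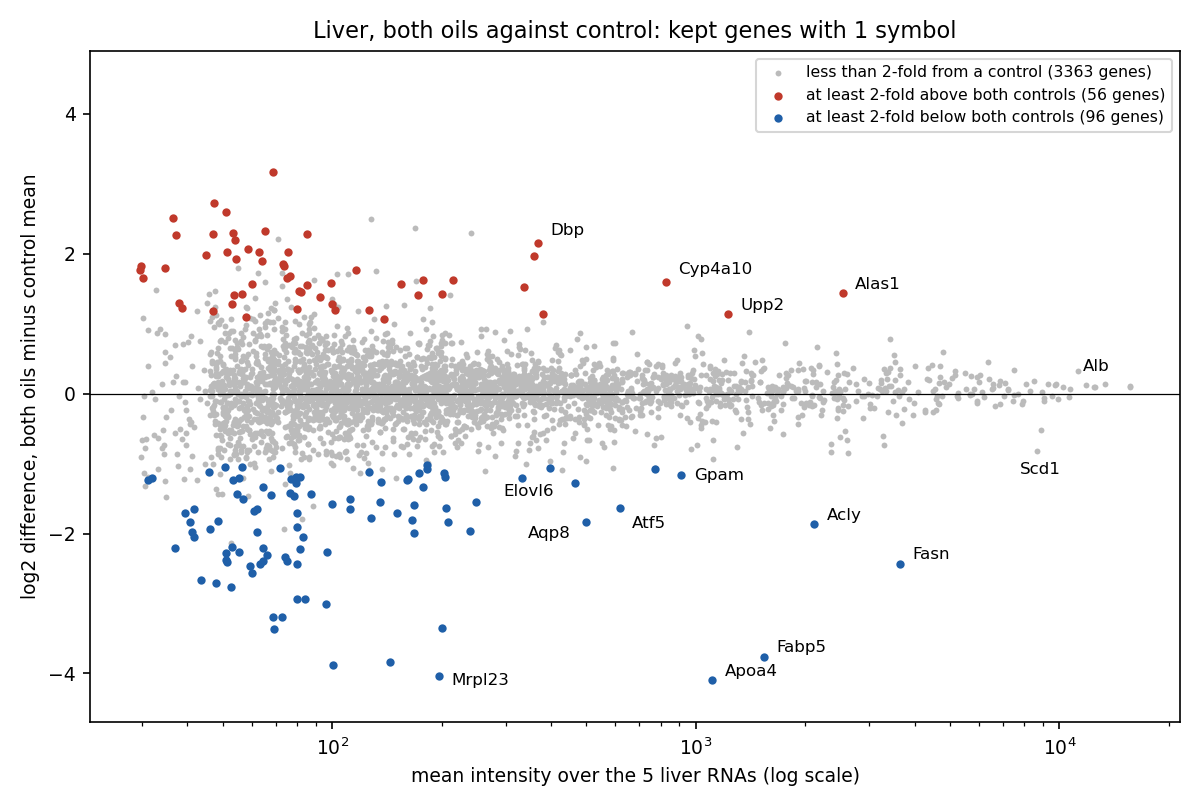
Each point is a kept gene with 1 symbol, with its mean intensity over the 5 liver RNAs (log axis) against the log2 difference of both oils minus the control mean. Red points are at least 2-fold above both controls (56 genes) and blue points at least 2-fold below both (96 genes). Points past 2-fold crowd at low intensity, where the scatter is wide, and Fasn (-2.43), Acly (-1.86), Apoa4 (-4.10), Fabp5 (-3.76) and Alas1 (1.44) stand apart from bright genes.

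All 7 measured genes of fatty acid synthesis read below both controls with both oils, beside 33.6% of all kept genes, with a median difference of -0.82. The fungal oil RNA had a median of -0.23 and the fish oil RNA of -0.08 for the same genes. Fasn, which builds palmitate from malonyl-CoA, read 5522 and 4906 in the controls, 2715 with fungal oil, 4104 with fish oil and 966 with both oils. It fell 5.39-fold against control (log2 -2.43, SE 0.14; limma in the bright subset, adjusted p = 0.00283). Acly, which makes cytosolic acetyl-CoA from citrate, fell from 3118 and 3275 to 878 (-1.86, SE 0.08; adjusted p = 0.00326). A second Acly probe set, on chip B, fell from 361 and 550 to 51 (-3.13; adjusted p = 0.0313), the same direction with a larger size. That probe set entered the bright subset through the controls.

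Further down the pathway, Elovl6, which elongates palmitate, fell from 618 and 714 to 274, little different from the 284 read with fungal oil (-1.28, SE 0.15; limma in the bright subset, adjusted p = 0.033). The desaturase Scd1, which makes oleate, read 9754 and 9811 in the controls, 8749 and 9493 with the single oils and 5541 with both oils. Of the 5 liver RNAs the RNA of both oils is alone at this low level, and the gene fell (-0.82, SE 0.05; adjusted p = 0.00696). Elovl2, which elongates long polyunsaturated fatty acids such as those in the test oils, fell from 2853 and 3167 to 1690, close to the 1780 of fish oil (-0.83, SE 0.10; adjusted p = 0.0441). Of the 5 measured desaturases and elongases, 5 read below both controls. Elovl3, an elongase of very long chains, read 513 and 520, 983 with fish oil and 317 with both oils, on opposite sides of control.

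Enzymes that supply NADPH for synthesis read lower too, with 6 of 6 below the control mean, 5 of 6 below both controls and a median of -0.65. These lists overlap and are not separate evidence. Scd1 and Elovl6 count both in fatty acid synthesis and among the desaturases and elongases, and Me1 both in fatty acid synthesis and in NADPH supply. Pgd, of the pentose phosphate pathway, read 139 and 135 in the controls, 60 with fungal oil and below the floor with fish oil and with both oils, at least 9.13-fold lower. The malic enzyme Me1 read 593 and 501 against 346 (-0.66, SE 0.16), and the transketolase Tkt 486 and 599 against 347 (-0.64, SE 0.18). Thrsp, a regulator of lipogenic genes, read 2444 and 2518 in the controls, 2947 with fungal oil, 2353 with fish oil and 1505 with both oils (-0.72, SE 0.11). None of Pgd, Me1, Tkt and Thrsp was called by limma.

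Assembly of glycerolipids showed no such shift as a group: 7 of 10 genes exceeded the control mean, with a median of 0.13. Its first enzyme, Gpam, fell from 1140 and 1228 to 526 (-1.17, SE 0.10; limma in the bright subset, adjusted p = 0.0271), while Dgat2, which completes triacylglycerol, read 4885 and 4020 against 4941. The coat protein of lipid droplets Plin2 read 2522 and 2606 against 2161. Of 5 measured genes of cholesterol synthesis, 2 lay below the control mean and the median was 0.02, which became -0.06 against control 2 alone and -0.02 against control 1 alone. Hmgcs1, which makes the precursor of mevalonate, was the lowest at 1506 and 1667 against 933 (-0.76, SE 0.11), and the other 4 lay between -0.08 and 0.16. A second probe set of Lss, opposite in sign to the one used, read 179 and 214 against 141 (-0.47). With all probe sets of a gene averaged the median of the list was -0.08.

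**Figure D2:**
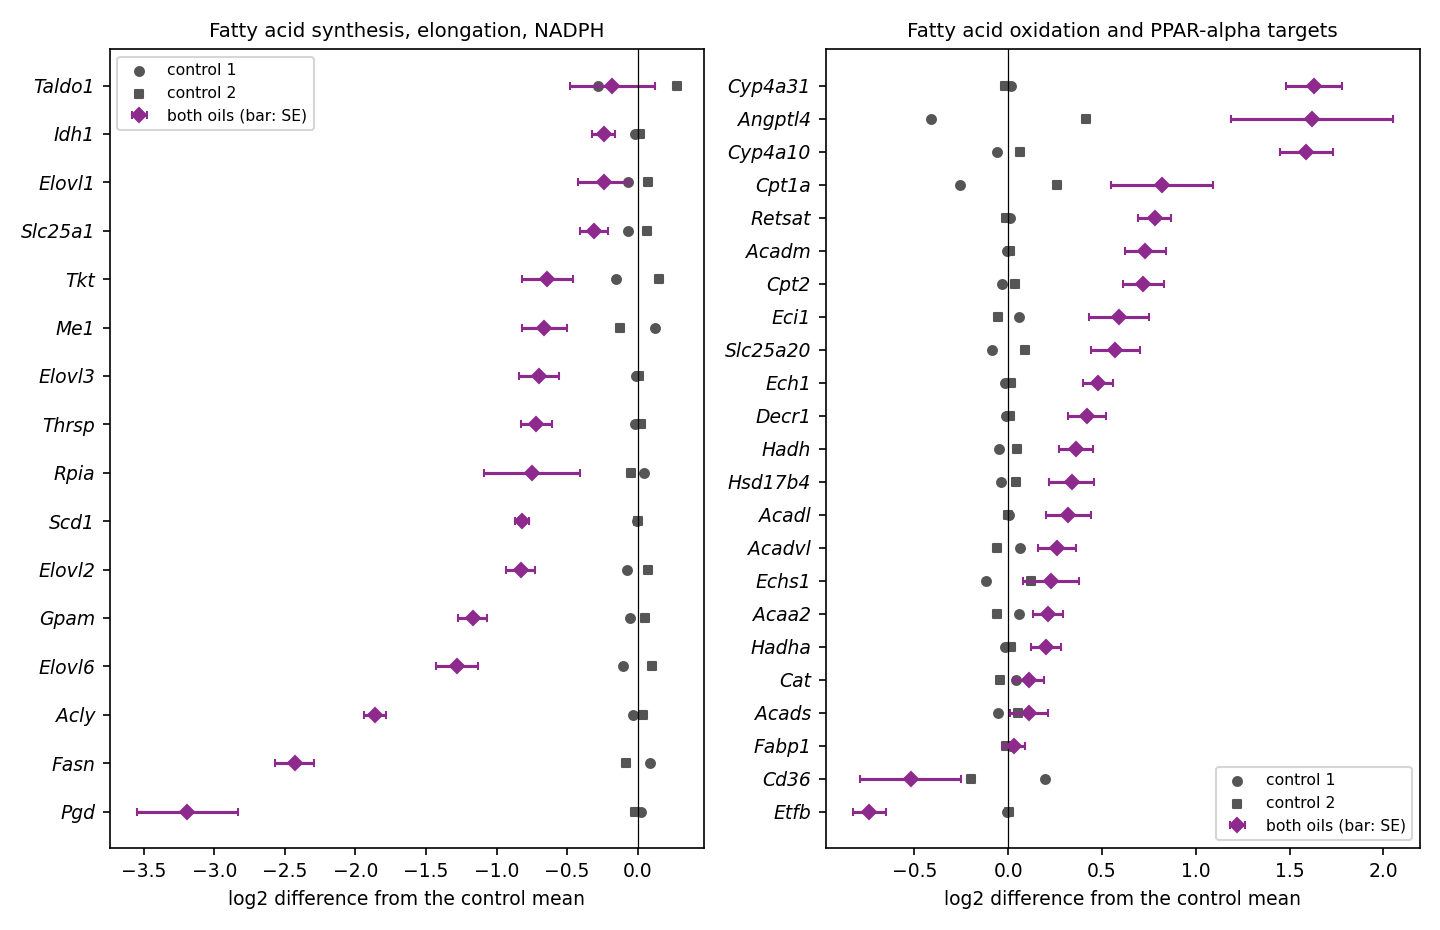
Log2 difference from the control mean for genes of fatty acid synthesis, elongation and NADPH supply with Gpam (left) and of fatty acid oxidation with targets of PPAR-alpha (right). Diamonds are both oils with the standard error of limma as bars, circles control 1 and squares control 2. Every diamond on the left lies below 0, from Taldo1 (-0.18) to Pgd, which is drawn at the floor and has only a bound, and most on the right lie above it, with Etfb (-0.74) as the lowest.

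The stretches before the transcription starts of 3 genes of fatty acid and glycerolipid synthesis, and of Hmgcs1 for comparison, are printed because these genes read lower together and CCAAT boxes and sterol elements are known features of SREBP-dependent promoters. Each line gives the 150 bases before the RefSeq start (GRCm38.p6, reference strain), 5′ to 3′ on the strand of the gene, with CCAAT (either strand, so also ATTGG) and the sterol element TCACNCCAC (either strand) in capitals. For Gpam the first of 2 starts is shown. Every printed stretch holds a CCAAT match, which is not so for all genes that read lower. Acly and Elovl6, which also fell, hold none and are not printed. CCAAT matches also stand before Upp2 (first of 2 starts) and Rgs16, which rose. They stand before Idi1, Lss and Ebp too, which were not called by limma.
Fasn, chr11:120824548-120824697, minus strand: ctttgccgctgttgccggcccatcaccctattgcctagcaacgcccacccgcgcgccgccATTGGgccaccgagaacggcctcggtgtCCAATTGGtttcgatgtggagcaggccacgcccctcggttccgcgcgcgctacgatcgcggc
Thrsp, chr7:97417551-97417700, minus strand: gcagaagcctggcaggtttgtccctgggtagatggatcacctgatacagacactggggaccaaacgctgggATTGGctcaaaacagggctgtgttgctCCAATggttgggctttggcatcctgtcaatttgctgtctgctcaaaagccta
Gpam, chr19:55127239-55127388, minus strand: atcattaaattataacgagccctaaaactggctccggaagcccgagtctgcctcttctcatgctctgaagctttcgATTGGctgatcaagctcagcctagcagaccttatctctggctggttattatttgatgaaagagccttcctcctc
Hmgcs1, chr13:119690201-119690350, plus strand: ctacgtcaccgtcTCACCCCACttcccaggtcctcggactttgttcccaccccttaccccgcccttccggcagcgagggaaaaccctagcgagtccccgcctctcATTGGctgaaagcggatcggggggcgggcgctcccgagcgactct

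Fasn holds 3 CCAAT matches in this window, 2 of them overlapping, Thrsp 2, Gpam 1 and Hmgcs1 1. Of the 7 measured fatty acid synthesis genes 6 have an entry, and 3 hold a CCAAT match, which 24.5% of all 32851 windows of this length do. A sterol element was found in Hmgcs1 and in 0 of the 6, against 0.639% of all windows. Elovl6, Me1 and the second start of Gpam hold no CCAAT match. Acly holds no CCAAT but 4 GC boxes (GGGCGG, either strand), which 28.6% of windows hold at least once. The promoter of Apoa4 holds none of these 3 motifs. Scd1, Fabp5, Cyp4a10, Cyp4a31 and Angptl4 were not matched in the table. A match describes letters and not binding.

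Genes of fatty acid oxidation mostly read higher with both oils. Of 14 mitochondrial genes 13 lay above both controls, beside 38.5% of all kept genes (median 0.34, and 0.15 with fungal oil and 0.37 with fish oil). Acadm, which oxidises medium-chain acyl-CoA, read 1357 and 1371 in the controls, 2014 with fungal oil, 1774 with fish oil and 2261 with both oils (0.73, SE 0.11). Cpt1a, the gate of fatty acid entry into mitochondria, read 604 and 864 against 1272 (0.82, SE 0.27), and Cpt2, its partner on the inner membrane, 408 and 428 against 690 (0.72, SE 0.11). The brightest member, the thiolase Acaa2, read 6237 and 5752 against 6922 (0.21, SE 0.08). The exception is Etfb, a subunit of the electron carrier that takes up electrons from acyl-CoA dehydrogenases. It read 1073 and 1081 in the controls, 1178 and 1065 with the single oils and 646 with both oils (-0.74, SE 0.09). None of these 14 genes was called by limma, in either fit.

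Of the targets of PPAR-alpha, the fatty acid omega-hydroxylase Cyp4a10 rose 3.02-fold, from 321 and 349 to 1010, between the 894 of fungal oil and the 1566 of fish oil (1.59, SE 0.14; limma in the bright subset, adjusted p = 0.0138). Cyp4a31, a close relative whose probes may share signal with it, rose from 132 and 129 to 405, above the 214 and 193 of the single oils (1.63, SE 0.15; adjusted p = 0.0315). Its controls lie under the 153.6 that bounds the bright subset on chip A, so it was tested there because the oil RNAs are higher, and its mean without the RNA of both oils is 167.0. Cyp4a14 was below the floor in both controls, read 160 with fungal oil and 385 with fish oil, and only 51 with both oils, at least 3.40-fold above control. It too was kept only through the oil RNAs. Angptl4, a secreted inhibitor of lipoprotein lipase, read 75 and 133 against 307 (1.62, SE 0.43). Its controls also lie under the bound of the bright subset, so it counts as brighter only through the oil RNAs.

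The list of targets as a whole was mixed. Of 13 measured, with Cyp4a10, Cyp4a14 and Angptl4 among them, 9 lay above both controls and 3 below both. Of all kept genes 38.5% lay above both and 33.6% below both. The median was 0.44, which became 0.15 against control 2 alone, 0.16 with all probe sets of a gene averaged and 0.09 in the bright subset. The fatty acid carrier Fabp1, very abundant in liver, read 7849 and 7694 against 7951, and Ppara itself 1158 and 1325 against 1175. Cd36, which takes up fatty acids, read 280 and 213 in the controls, 591 with fish oil and 170 with both oils (-0.52, SE 0.27). Retsat, the retinol saturase, read 733 and 723 against 1250 (0.78, SE 0.09), although another, dim Retsat probe set read 79 and 70 against 43. Peroxisomal genes had a median of 0.11, or 0.17 against control 1 alone, with the dienoyl-CoA isomerase Ech1 highest at 1226 and 1252 against 1731 (0.48, SE 0.08).

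Apoa4, an apolipoprotein of triglyceride-rich particles, read 1987 and 2034 in the controls, 781 with fungal oil, 629 with fish oil and 117 with both oils. It fell 17.2-fold (-4.10, SE 0.10; limma in the bright subset, adjusted p = 0.000406). Most of the other 13 measured apolipoproteins and transfer proteins moved little, and the median of the list was 0.06, which became -0.01 against control 1 alone. Apoa2 read 16032 and 13428 against 15581, and Apoh 9667 and 9430 against 10542. Pltp, which transfers phospholipids between lipoproteins, was dim at 86 and 92 and read 16 with both oils. Fabp5, an intracellular fatty acid carrier, fell from 3334 and 3137 to 238, with 593 and 384 in the single oils (-3.76, SE 0.13; adjusted p = 0.000406).

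Dbp, a transcription factor whose level swings strongly over the day, read 176 and 162 in the controls, 581 with fungal oil, 174 with fish oil and 747 with both oils. It rose 4.42-fold (2.15, SE 0.14; limma in the bright subset, adjusted p = 0.00704). Upp2, a uridine phosphorylase of liver with a daily rhythm, was likewise high with fungal oil and with both oils but not with fish oil, at 806 and 812 in the controls and then 2044, 1779 and 687 (1.14, SE 0.08; adjusted p = 0.0214). Bhlhe40, a clock repressor, read 248 and 224 against 440 (0.90, SE 0.18), and Per1 175 and 157 against 196. Clock itself was dim at 63 and 61 against 30, and Nfil3, which opposes Dbp at D-boxes, read 54 and 84 against 36. Over the 7 measured genes 4 lay above both controls and 2 below both, beside 38.5% and 33.6% of all kept genes. The median was 0.24, which became 0.12 without the filter and 0.90 in the bright subset. The mice were killed over a morning and could have been without food for 0 to 6 h, which the labels give for the groups as a whole.

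Alas1, which controls the first step of haem synthesis in liver, rose from 1299 and 1177 to 3355, between the 2265 of fish oil and the 4573 of fungal oil (1.44, SE 0.13; limma in the bright subset, adjusted p = 0.0138). Over the 9 measured genes of haem synthesis 4 lay above both controls and 3 below both, close to the 38.5% and 33.6% of all kept genes. Their median was 0.04, which became -0.01 against control 2 alone, 0.19 against control 1 alone and 0.41 in the bright subset. Of the later steps, Cpox read 871 and 767 against 1223 (0.58, SE 0.12) and Alad 4053 and 3062 against 4682 (0.41, SE 0.23). The erythroid isoform Alas2 read 1081 and 990 against 664 (-0.64, SE 0.14), beside lower globins. The 10 erythroid markers on the chips, kept or not, sum to 14464 and 12356 in the controls and 9055 with both oils.

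Haem is the cofactor of cytochromes P450. Of 15 measured members of families 1 to 3, 12 lay above both controls, beside 38.5% of all kept genes (median 0.30, or 0.28 after quantile normalization). Cyp3a11, which oxidises many drugs, read 4935 and 4618 in the controls and 6542 with both oils (0.45, SE 0.13), and Cyp2c29 5191 and 4996 against 6107 (0.26, SE 0.06). The most abundant, Cyp2e1, read 9172 and 9171 against 8671. Glutathione transferases had a median of -0.01, with Gstp1 at 8730 and 8844 against 8592, Gstm2 lower at 607 and 700 against 385 (-0.76, SE 0.14) and Gstt2 higher at 167 and 159 against 270 (0.73, SE 0.15). No cytochrome of families 1 to 3 and no glutathione transferase was called by limma against control.

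**Figure D3:**
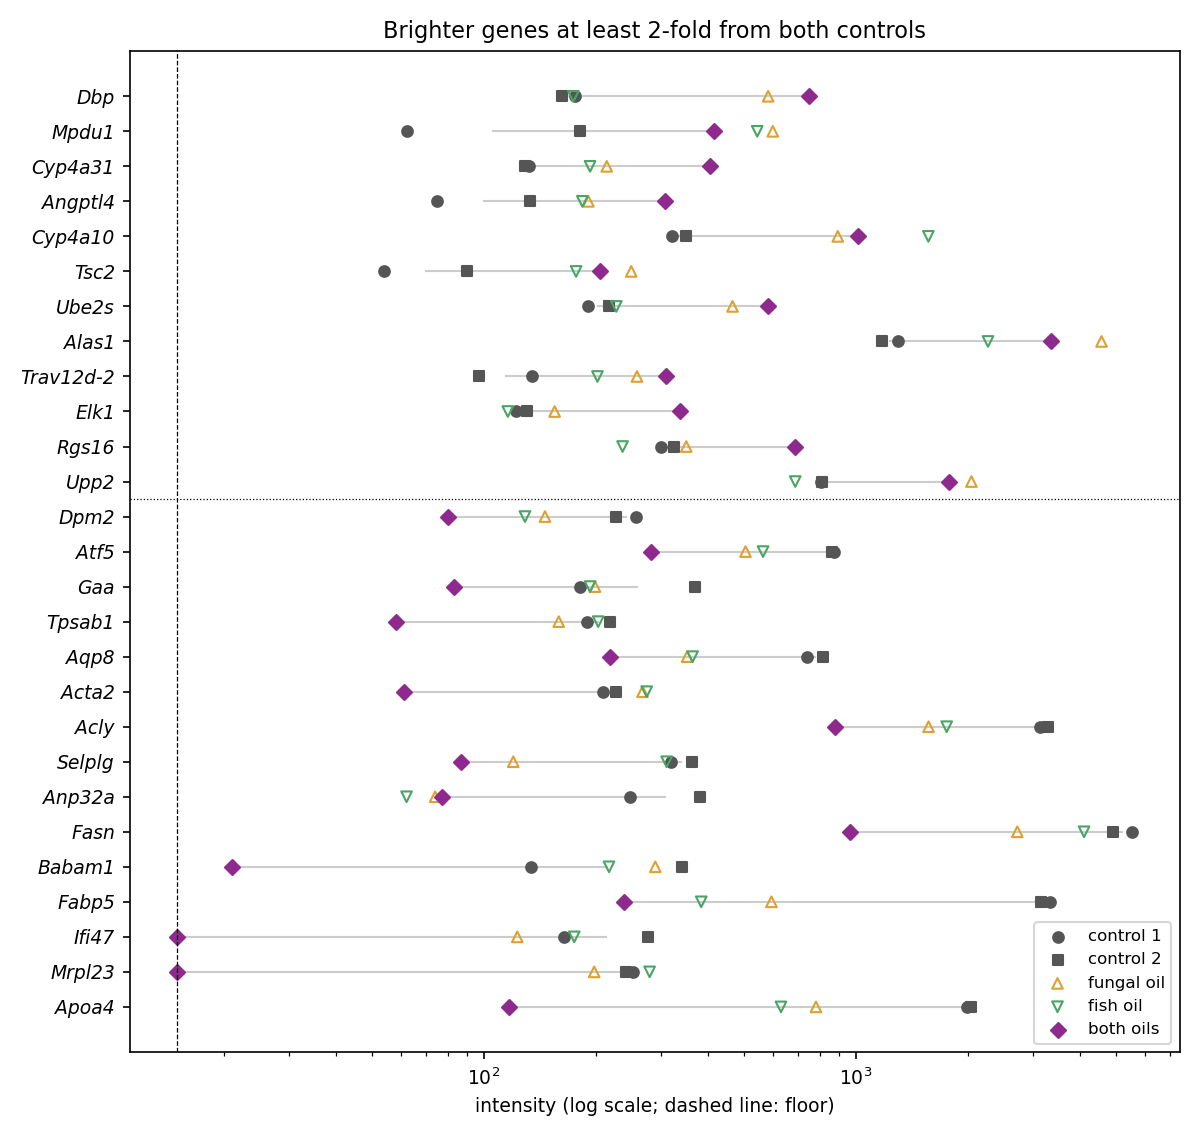
Intensity (log axis) in each of the 5 liver RNAs for the 12 brighter genes at least 2-fold above both controls (upper block) and the 15 lowest of the 29 at least 2-fold below both (lower block). Grey symbols are the controls, open triangles the single oils and diamonds both oils, and values below 15 are drawn at the dashed floor. Controls of Apoa4, Fabp5 and Acly lie close together, whereas those of Mpdu1, Babam1 and Gaa are far apart. In the upper block Angptl4, Cyp4a31, Elk1, Mpdu1, Trav12d-2 and Tsc2 have control means under the bound of the bright subset. They entered it through the oil RNAs.

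Bile acid genes had a median of 0.48, and of 0.23 against control 1 alone. Of 9 measured, 5 lay above both controls, beside 38.5% of all kept genes. Baat, which conjugates bile acids, differed between the controls (1449 and 697), as did the bile salt importer Slc10a1 (5117 and 3237). Cyp7a1, the rate-limiting enzyme of the classic route, was dim and uneven at 23 and 59 in the controls against 133, and Cyp7b1, of the alternative route, read 783 and 793 against 1217 (0.63, SE 0.09). Their repressor Nr0b2 read 1003 and 860 against 604 (-0.62, SE 0.16). Among retinoid genes, Aldh1a1, which makes retinoic acid, read 2225 and 2548 against 4091 (0.78, SE 0.12). None of these bile acid and retinoid genes was called by limma.

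Genes of fasting and glucose output did not move together, with 4 of 9 above the control mean and a median of -0.01. G6pc, which releases free glucose, read 969 and 1160 in the controls, 1224 with fungal oil, 1669 with fish oil and 553 with both oils (-0.94, SE 0.15), and Got1, a cytosolic aminotransferase, 1051 and 900 against 467 (-1.06, SE 0.14). The kinase Pdk1, which restrains pyruvate dehydrogenase, read 250 and 266 against 113 (-1.19, SE 0.15). Igf1, the growth factor secreted by liver, read 3139 and 2848 against 3710 (0.31, SE 0.13), and its carrier Igfals, dim at 106 and 108, read 223 (1.06, SE 0.17). In amino acid breakdown the highest of 14 was the tryptophan oxygenase Tdo2, at 3917 and 3867 against 5867 (0.59, SE 0.12).

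Atf5, a stress-responsive transcription factor abundant in liver, fell from 875 and 864 to 281, below the 505 and 563 of the single oils (-1.63, SE 0.10; limma in the bright subset, adjusted p = 0.00876). Its upstream relative Atf4 read 1115 and 1129 against 647 (-0.79, SE 0.09), and the tryptophanyl-tRNA synthetase Wars, dim at 89 and 105, read 45. Herpud1, which helps degrade misfolded proteins of the endoplasmic reticulum, rose from 991 and 1076 to 1902 (0.88, SE 0.10; adjusted p = 0.0459). The chaperones Hspa5 (2989 and 2614 against 1820, -0.62, SE 0.15) and Manf (1113 and 1184 against 840, -0.45, SE 0.10) read lower, so Herpud1 went the other way from 10 of the 16 genes of its list. In the heat shock list Stip1 read 264 and 259 against 124 (-1.08, SE 0.15) and Hsph1 231 and 237 against 115 (-1.02, SE 0.15), while the median over 22 genes was -0.03, or 0.09 against control 2 alone.

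Several other genes were called in the bright subset. Aqp8, a water channel of hepatocytes, fell from 741 and 815 to 219, with 352 and 364 in the single oils (-1.83, SE 0.13; limma, adjusted p = 0.00876). Neat1, a long nuclear RNA, fell from 1218 and 1269 to 588, less far than the 394 and 384 of the single oils (-1.08, SE 0.10; adjusted p = 0.0315). Of 16 measured nuclear RNAs and splicing factors, Nono, outside the bright subset, lay at least 2-fold above both controls. Plk1, a mitotic kinase, fell from 402 and 370 to 132 (-1.55, SE 0.15; adjusted p = 0.0313), and Ube2s, a ubiquitin-conjugating enzyme of mitosis, rose from 190 and 217 to 582 (1.52, SE 0.16; adjusted p = 0.0256). Of 19 measured cell cycle genes, Ccna2 and Tk1, outside the bright subset, lay at least 2-fold above both controls, and Plk1 at least 2-fold below both. The 19 had a median of 0.15, which became 0.28 against control 2 alone, 0.07 against control 1 alone and 0.00 without the filter. Control 2 minus control 1 had a median of -0.20 over them.

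Mrpl23, a mitochondrial ribosomal protein, read 251 and 241 in the controls and 198 and 279 in the single oils. With both oils it was at the floor, so it fell at least 16.4-fold (limma in the bright subset, adjusted p = 0.00696). The interferon-induced GTPase Ifi47 read 164 and 277 in the controls and fell at least 14.2-fold, under the floor (adjusted p = 0.0316); it entered the bright subset through the controls. The other 11 interferon genes lay between -0.59 and 0.83. Selplg, a selectin ligand of leukocytes, fell from 318 and 362 to 87 (-1.96, SE 0.23; adjusted p = 0.0404). Entr1, an endosomal protein, fell from 464 and 450 to 219 (-1.06, SE 0.12; adjusted p = 0.0404). Rgs16, which shortens G protein signalling, rose from 300 and 324 to 688, with 350 and 236 in the single oils (1.14, SE 0.13; adjusted p = 0.0389).

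The other brighter genes past 2-fold were not called by limma. Acta2, the smooth muscle and stellate cell actin, read 209 and 227 against 61 (-1.84, SE 0.23), and the mast cell tryptase Tpsab1 189 and 218 against 58 (-1.81, SE 0.19). Acta2 is the lowest of 9 measured stellate and connective tissue markers. Of these 9 markers, 5 lay below both controls and 3 above both, beside 33.6% and 38.5% of all kept genes. Their median was -0.17, and the 13 on the chips sum to 2562 and 2571 in the controls and 2491 with both oils. Anp32a, of the nucleus, read 247 and 380 against 77, Babam1 134 and 341 against 21 and Dpm2 257 and 227 against 80. On the higher side, Mpdu1 read 62 and 181 against 415, Tsc2 54 and 90 against 205, Elk1 122 and 131 against 336 and the T cell receptor segment Trav12d-2 135 and 97 against 308. In Mpdu1 and Babam1 the controls differ by more than 2-fold. The control means of Mpdu1, Tsc2, Elk1 and Trav12d-2 lie under the 75th percentile of either chip (153.6 and 139.2). These genes count as brighter only through the oil RNAs.

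Markers of other cells moved as well, and in whole tissue fewer cells of a type and less RNA per cell cannot be told apart. All 12 measured markers of Kupffer cells and macrophages lay below the control mean, 8 of them below both controls, with a median of -0.16. That median became -0.32 against control 1 alone, -0.33 in the fit that adds the oils and -0.10 in the bright subset. The 15 such markers on the chips, kept or not, sum to 3394 and 3360 in the controls, 2476 and 2307 with the single oils and 2632 with both oils. Of these, Marco and Fcgr3 were at the floor throughout the 3 RNAs compared. Clec4f, a lectin of Kupffer cells, read 180 and 254 against 93 (-1.20, SE 0.30), and C1qa 191 and 151 against 80 while its partner C1qc read 377 and 337 against 349. Of 17 antigen presentation genes 10 lay below both controls, beside 33.6% of all kept genes (median -0.22, or -0.13 in the bright subset). Of 21 cytoskeletal genes 14 lay below both controls, with a median of -0.15, which became -0.30 against control 2 alone and -0.32 with all probe sets of a gene averaged. Actb read 3082 and 3098 against 2141 (-0.53, SE 0.07) and the tubulin Tubb5 595 and 603 against 307 (-0.96, SE 0.14). The part of cell composition in the results above was not tested. The 13 gut and gall bladder markers on the chips, kept or not, sum to 3721 and 3360 in the controls and 1629 with both oils. This total includes Apoa4 at 1987, 2034 and 117.

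Large complexes hardly shifted. The 37 cytosolic ribosomal proteins had a median of -0.03, the 29 proteasome genes of 0.00 and the 40 genes of the respiratory chain of 0.02. The ribosomal protein Rpl28 was the lowest of its list at 3820 and 3733 against 2261 (-0.74, SE 0.11), and Uqcrc2, a subunit of complex III, read 313 and 381 against 595 (0.78, SE 0.18). Coagulation factors and serpins had a median of 0.05 (-0.01 against control 2 alone) and complement of 0.10. Selected lists are drawn together in the plot of list medians.

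**Figure D4:**
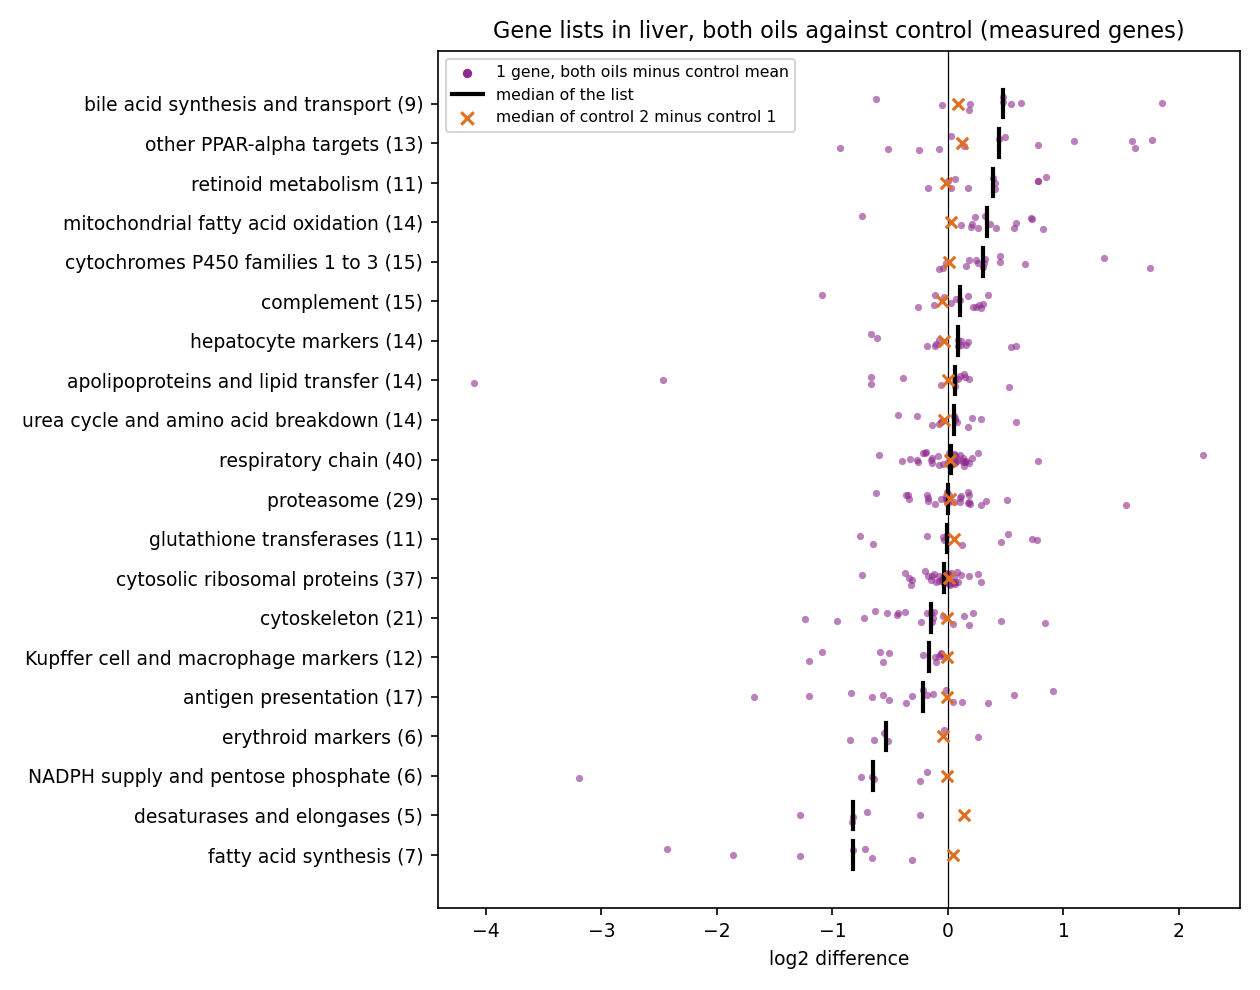
Log2 differences of both oils minus the control mean for the measured members of 20 gene lists (number of genes in parentheses), 1 point per gene, with the median of the list as a black bar and the median of control 2 minus control 1 as an orange cross. Medians run from -0.82 for fatty acid synthesis to 0.48 for bile acid genes, while lists of large complexes sit at 0 with crosses beside them. Some genes stand in more than 1 list.

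To ask how the mixture differed from each oil, the RNA of both oils was set against the single-oil RNAs within the same fit. RNA quality by Gapdh was less even here: with fungal oil Gapdh had 3-prime to 5-prime ratios of 2.479 and 2.513, and the chip B array of fish oil, at 3.255, was the highest of the 10 liver arrays, while its chip A array had 1.951. The actin ratio of that chip B array was 3.333, beside 3.709 and 3.382 in the controls and 3.316 with both oils. With fungal oil the actin ratios were 3.871 and 4.173. Fasn and Elovl3 are measured on chip B, and the part of RNA quality in these contrasts was not tested. limma called 0 of 6537 probe sets in either contrast (lowest adjusted p 0.619 against fungal oil and 0.51 against fish oil), with 524 and 581 at an unadjusted p under 0.05. In the bright subset 2 were called against fungal oil (0.0612%), both lower with the mixture: Apoa4 (117 against 781, log2 -2.74; limma, adjusted p = 0.0143) and an unnamed probe set, at 415 with fungal oil and below the floor with both oils. Against fish oil 24 were called (0.734%), 8 higher and 16 lower. Lower were Fasn (966 against 4104, -2.09), Acly (878 against 1754), Scd1 (-0.78), Elovl3 (317 against 983, -1.63), G6pc (553 against 1669, -1.59), Apoa4 (-2.43) and Mrpl23, at the floor with both oils against 279. Higher were Dbp (747 against 174, 2.10), Upp2 (1779 against 687, 1.37), Rgs16 (688 against 236, 1.54) and Lypd8 (292 against 69, 2.08), for which the fish oil RNA is the outlying value, since the controls read 373 and 335.

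The size of some of these differences against fish oil depends on the scaling. Whether the calls do was not tested, as limma was not run on quantile-normalized values of the bright subset. The hepatocyte markers sum to 93551 in the fish oil RNA against 80335 with both oils, and after quantile normalization the difference of Cyp2e1 went from -0.60 to -0.04, of Gstp1 from -0.55 to 0.00 and of Serpina1e from -0.60 to -0.24. Acly (-0.99), Dbp (2.11), G6pc (-1.54) and Elovl3 (-1.68) kept their size, Scd1 went to -0.47 and a called Apoe probe set went from -0.87 to -0.62. The departure of the mixture from the sum of the single-oil differences was called for 0 of 6537 probe sets (lowest adjusted p 0.529, and 607 at an unadjusted p under 0.05) and for 1 unnamed probe set in the bright subset (0.0306%). A p that misses the threshold with 1 RNA per diet does not show that the oils add up.

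**Figure D5:**
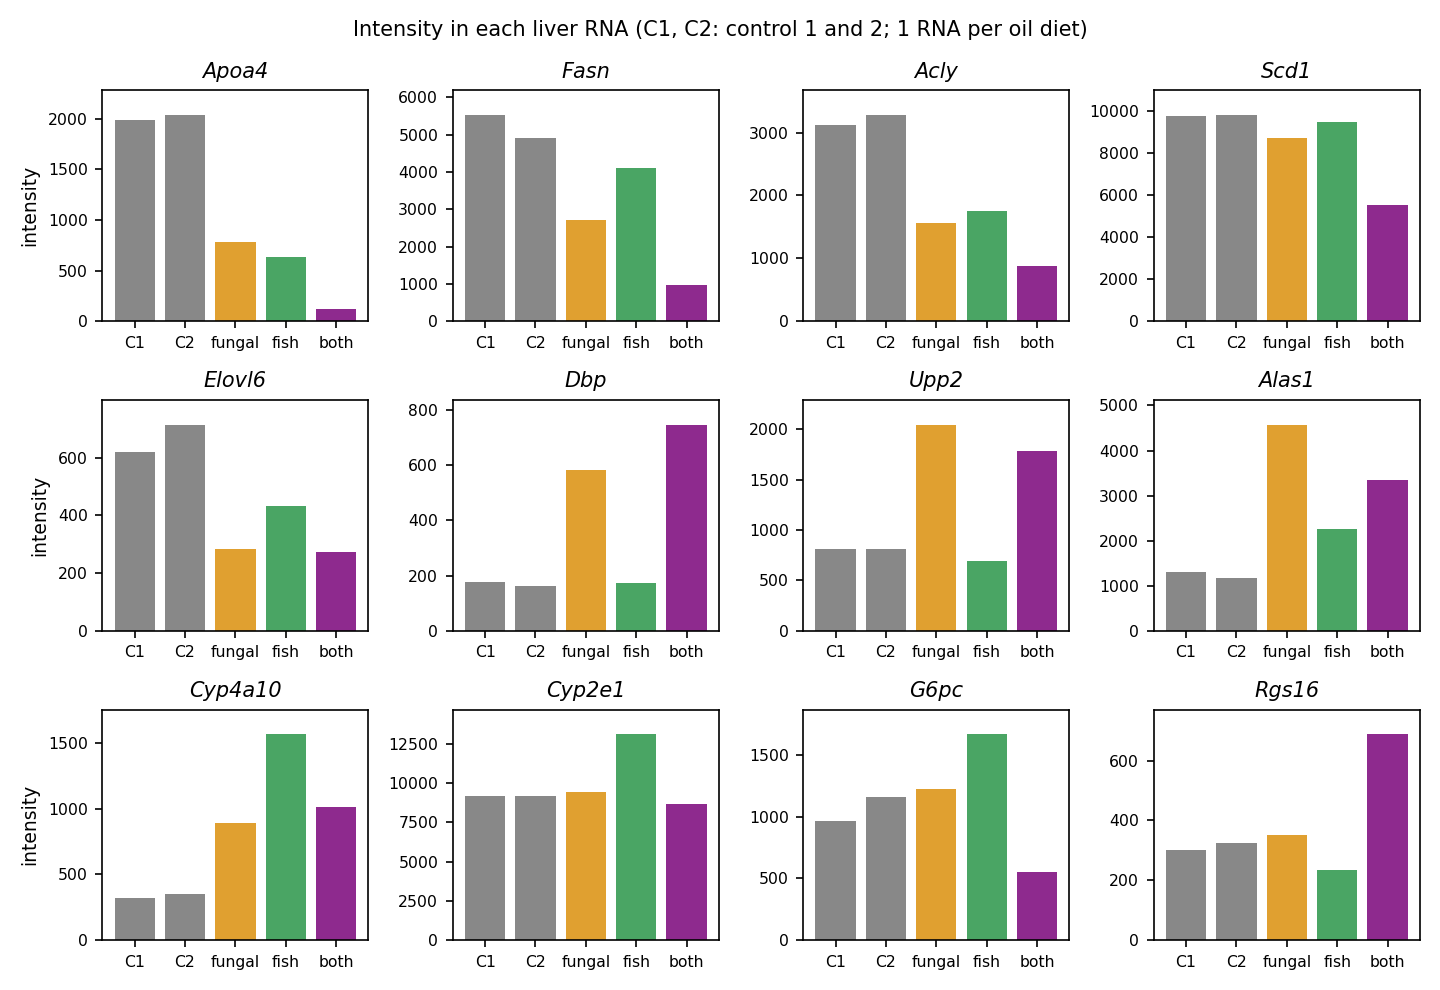
Intensity of 12 genes in the 5 liver RNAs, 1 bar per RNA from 0: control 1 and 2 (grey), fungal oil, fish oil and both oils. Fasn, Scd1 and G6pc are lowest with both oils, Dbp and Upp2 are high with fungal oil and with both oils but not with fish oil, and Cyp4a10 is highest with fish oil (1566).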

How the data were processed

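The deposited values are an intensity for every probe set, whole numbers and partly negative, and how the authors computed them is not given in the sources used here. The liver arrays share a trimmed mean of 150.3 to 150.5, so they were used as deposited. The 55 control probe sets of each chip did not enter the tests. Names come from the platform annotation: 5541 of 6529 on chip A and 2001 of 6540 on chip B have 1 symbol.

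Intensities below 15 were set to that floor and log2 taken. Probe sets with a mean over the 5 liver arrays at or above the median of the chip were kept; the lowest kept means are 46.0 and 29.6, and the highest left out 45.8 and 29.4. limma (3.58.1, R 4.3.3) fitted 4 diet groups per chip with an intensity trend, tested on simulated data, with Benjamini-Hochberg adjustment over the chips together. The number of arrays and signal over background limit the precision.

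Members, gene lists and tests were chosen with earlier results of these data known. Named genes are the 15 largest each way among the bright subset at least 2-fold from both controls, the 3 brightest and any 2-fold members of each of 59 lists, and genes called by limma. Others were named after their values were seen. Not every gene chosen by this rule is described above. Cd4, Sgk1 and Tap2, 2-fold members of their lists, are among those left out. Promoter sequences are RefSeq's (GRCm38.p6), matched by symbol for 25 of 34 genes. Alternatives were quantile normalization, other floors and filters, no intensity trend, an additive fit, chip A alone, averaging all probe sets of a gene and leaving out each control.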

Additional observations from a re-analysis of the deposited data

How the results depend on the processing

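The 0 limma calls for both oils against control stayed 0 with quantile normalization, either other floor and no intensity trend. They became 37 in the bright subset, 16 when the oils were assumed to add up (Fabp5 at -4.02 and Apoa4 at -3.95; named calls: Acly, Apoa4, Aqp8, Atf5, Dbp, Fabp5, Fasn, Gpam, Ube2s and Upp2) and 341 without the filter, of which 336 had equal controls, 311 with both at the floor. The 149 probe sets at least 2-fold above became 386 without the filter, 21 in the bright subset, 440 to 449 against a single control, 87 with no value at the floor and 72 when filtered on the control mean; the last 2 settings were chosen after seeing the data. The 235 below became 140 with a floor 2.5 times as high, 55 in the bright subset, 378 to 393 against a single control and 145 with no value at the floor. Higher calls made up 38.8% of those past 2-fold, 34.2% after quantile normalization, 47.0% with the higher floor, 53.6% without the filter, 27.6% in the bright subset and 18.9% when filtered on the control mean. The contrast with fungal oil went from 0 to 579 calls without the filter and 2 in the bright subset, that with fish oil to 619 and 24, and the departure from additive oils to 821 and 1. List medians at least 0.1 from 0 that changed sign were fatty acid binding (0.03 on chip A alone), antioxidant defence (-0.01 without control 2, 0.08 without control 1), insulin and growth signalling (-0.10 on chip A alone), bile duct markers (-0.25 without control 2, 0.16 without control 1) and pancreas markers (-0.08 in the additive fit). Counting small medians too, of 58 lists 51 kept their sign without control 1, 45 without control 2, 52 after quantile normalization, 51 in the additive fit, 52 with all probe sets of a gene averaged and 43 without the filter, as did 46 of 56 on chip A alone and 51 of 54 in the bright subset. Of 48 named genes past 2-fold, 48 kept their sign under each alternative that measured them, except that Arpc5 went to 0 with the higher floor. For leaving out a control this was fixed in advance, since these genes were chosen to lie on the same side of both controls. It was also fixed without the filter and in the bright subset, where the values of a gene are the same. The cause of these changes was not tested. limma without a control has no residual degrees of freedom and was not run. No paired analysis was possible because the groups compared share fewer than 2 replicate numbers.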
